A study of Mus musculus with 4 samples.

Results

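Utp14a, Pus1, Ncl, Npm1 and Fbl encode nucleolar and nuclear proteins that make or modify ribosomal and other non-coding RNA. They were chosen by name, as every probe set (a set of short probes that reports one transcript) that the array annotation gives to just 1 of these 5 symbols. That gave 5 probe sets, 1 for each gene, out of 12422 probe sets that are not array controls, and 5 of 8251 genes. They were listed with their values on these same arrays in view, so the values of all 5 genes are given as a description and no test is made on them.

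Total RNA of mouse embryonic stem cells was measured on 4 Affymetrix arrays. All samples were E14tg2a, a line grown without feeder cells, in a control form (control cells) and in a form labelled Akt12, which expresses a constitutively active Akt kinase (Akt cells). Each form was sampled 1 time in leukemia inhibitory factor (LIF, a cytokine that blocks differentiation of these cells) at 3000 U/ml and 1 time 4 days after its removal, so each of the 4 groups is 1 array. The sources used here do not give whether Akt12 is 1 clone, which promoter drives the Akt form or whether the controls carry an empty vector, and an effect of a single clone cannot be told apart from one of Akt.

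The deposited intensities were quantile normalized, values under 15.8 were raised to it (the floor), and log2 was taken. Between 5625 and 5659 genes lay above the floor on each array. The stem cell identity of the samples was checked with 11 marker genes, of which 10 were above the floor on all 4 arrays, while Esrrb was at the floor on all 4. Their summed intensity in control cells was 10857 with LIF and 4109 without it, and in Akt cells 11654 and 7670. After withdrawal 7 of 10 measured markers were at least 2-fold lower in control cells (6.4% of all genes). In Akt cells 4 of 10 were (3.65% of all genes). Without LIF, 9 of the 10 were higher in Akt than in control cells (55.0% of all genes), while Nanog was lower (647 against 697). Of 15 fibroblast and feeder markers, 12 were above the floor in control cells without LIF, with a summed intensity of 761. On the other arrays 6 to 8 were above it, with sums of 298 to 407. Dcn and Col3a1, matrix genes that define this class, lay at the floor in Akt cells with and without LIF, while Dcn reached 153 and Col3a1 71.6 in control cells without LIF. Other markers of the list were measured in Akt cells, among them Col1a2 at 157 with LIF and 161 without it (127 and 177 in control cells). Pdgfra was at 74.4 and 37.1 in Akt cells, against the floor and 21.6 in control cells, and Thy1 at 46.2 and 47.7, against 31.6 and 27.6. Postn, Pdgfrb and Fap were at the floor on all 4 arrays. RNA integrity was read from the ratios of 3' to 5' signals, which are higher where RNA is more degraded. For actin the ratio was 2.33 with LIF and 1.66 without it in control cells, against 3.04 and 2.48 in the Akt line. For Gapdh it was 3.03 and 3.19 in control cells, against 3.05 and 2.46, so that control cells without LIF had the lowest ratio by actin and the highest by Gapdh. The part of other cells and of RNA quality in the values below was not tested.

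Ribosomes are built in the nucleolus. RNA polymerase I transcribes a long precursor RNA, small nucleolar ribonucleoprotein particles guide its chemical modification, and a large complex called the small subunit processome folds and cuts it before the subunits are exported. Growing stem cells make many ribosomes, and the pathway is known to respond to growth factor signals and to Myc proteins. Fbl (fibrillarin) is the methyltransferase of the box C/D particles. Utp14a belongs to the small subunit processome. Pus1 is a pseudouridine synthase that acts on transfer RNA and other RNAs, so it modifies RNA rather than assembling ribosomes. Ncl (nucleolin) binds nascent precursor RNA, and Npm1 (nucleophosmin) is a histone-binding chaperone of the nucleolus with roles in late subunit assembly and export.

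Promoter windows from RefSeq (build GRCm38.p6, 250 bases before to 50 bases after a transcript start) matched 3 of the 5 genes. They are printed for Utp14a and Pus1, whose levels differed most among the arrays, and for Ncl, which differed less. The Utp14a window lies at chrX:48256684-48256983 on the plus strand, the Pus1 window at chr5:110780547-110780846 on the minus strand, and the Ncl window at chr1:86359406-86359705 on the minus strand. Capitals mark CACGTG, the E-box that Myc proteins can bind, GGGCGG, the core of SP1 sites, and CCAAT, each searched on both strands. The reverse complements of the last 2 are CCGCCC and ATTGG, and the E-box reads the same on both strands.
Utp14a: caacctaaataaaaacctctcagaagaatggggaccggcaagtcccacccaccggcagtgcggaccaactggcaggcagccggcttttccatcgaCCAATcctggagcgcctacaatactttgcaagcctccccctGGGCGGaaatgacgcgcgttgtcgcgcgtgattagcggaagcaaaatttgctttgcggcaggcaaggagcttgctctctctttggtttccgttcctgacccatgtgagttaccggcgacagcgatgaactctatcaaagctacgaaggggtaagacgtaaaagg
Pus1: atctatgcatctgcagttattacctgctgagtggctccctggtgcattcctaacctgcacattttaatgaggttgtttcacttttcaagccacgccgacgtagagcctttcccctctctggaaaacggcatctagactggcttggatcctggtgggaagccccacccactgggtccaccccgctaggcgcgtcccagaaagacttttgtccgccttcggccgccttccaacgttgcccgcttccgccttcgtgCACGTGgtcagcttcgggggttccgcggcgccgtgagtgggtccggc
Ncl: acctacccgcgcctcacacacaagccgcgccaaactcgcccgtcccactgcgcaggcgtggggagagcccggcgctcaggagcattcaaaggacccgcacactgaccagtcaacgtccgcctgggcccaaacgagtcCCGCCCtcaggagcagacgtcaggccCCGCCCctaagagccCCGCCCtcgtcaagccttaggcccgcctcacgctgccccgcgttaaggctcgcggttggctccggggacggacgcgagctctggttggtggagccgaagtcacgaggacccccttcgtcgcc
The Pus1 window held 1 E-box, which began 3 bases after the first transcribed base. A second Pus1 window from a nearby start overlaps it and holds the same E-box. The Utp14a and Ncl windows held no E-box, and 7.15% of all 32851 promoter windows held the E-box. GGGCGG was found 1 time in the Utp14a window and 3 times in the Ncl window, against 35.7% of all windows with at least 1 match. CCAAT was found in the Utp14a window only, against 37.4% of all windows. The motifs CCGGAAG (ETS factors) and TATAAA, and longer ones of NRF1 and YY1, searched the same way, were in none of the 3 windows, against 8.86%, 13.6%, 0.971% and 0.852% of all windows. The share of G and C was 54.7% for Utp14a, 59.0% for Pus1 and 69.3% for Ncl, against a median of 52.7% over all windows. A match is a string of letters and not evidence that a factor binds there. Npm1 and Fbl were not analysed in this respect.

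Utp14a (probe set 104470_at, chromosome X) differed widely among the arrays. Its normalized intensity in control cells was 329 with LIF and 70.9 without it, and in the Akt line 156 with LIF and 402 without it. The high arrays were therefore the LIF-treated controls and the Akt cells deprived of LIF, 0.29 apart on the log2 scale. The next step down, to Akt cells with LIF, was 1.07, and control cells without LIF lay a further 1.14 below. The gap between the 2 high arrays is smaller than the spread between probe sets of the same gene, an SD of 0.35 to 0.41 in log2 depending on the comparison, and the other gaps exceed it. That spread, the only error that the 4 arrays offer, covers differences between probe sets and not between cultures. It was computed for LIF withdrawal in each line and for the lines with and without LIF. Gaps between other pairs of arrays are set beside the same range.

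After LIF withdrawal Utp14a was 4.64-fold lower in control cells and 2.57-fold higher in Akt cells. In log2 these differences were -2.21 and 1.36. Of the 5984 genes measured in control cells, 42 had a lower value, and of the 5945 measured in Akt cells, 63 had a higher one. Akt cells compared with control cells were 2.10-fold lower with LIF and 5.66-fold higher without it. The log2 difference with LIF, -1.07, became -0.98 when the arrays were scaled to the hybridization controls, which ends the 2-fold difference. The comparisons share arrays, so they are not independent of one another. In such bulk samples fewer cells with a high level and less RNA per cell cannot be told apart.

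Pus1 (probe set 103544_at, chromosome 5) had its highest level in control cells with LIF, at 124. It was 61.6 in the controls after withdrawal, and in the Akt line 16.1 with LIF and 70.5 without it. Akt cells with LIF stood apart as the low array, 1.94 in log2 below the next, while the 2 arrays without LIF differed by 0.19, less than the spread between probe sets. The value in Akt cells with LIF lies just above the floor. As deposited it was 13.5, against a highest value of 8.2 on that array for the 19 probe sets of transcripts absent from mouse cells, and of 14.9 on any array.

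Pus1 was 4.40-fold higher in Akt cells after LIF withdrawal, with 5 of 5945 genes above it. With LIF it was 7.70-fold lower in Akt cells than in control cells, with 6 of 5938 genes below it. Both values rest on the LIF-treated Akt array. With a floor at the 60th percentile, an intensity of 47.8, the Akt value was set to the floor and the log2 differences became 0.56 and -1.37 in place of 2.14 and -2.94. In control cells the log2 difference after LIF withdrawal was -1.003, at the limit of the 2-fold rule, and it became -0.95 with scaling to a common trimmed mean. Without LIF, Akt and control cells differed by 0.19, and this value was -0.14 in the deposited intensities.

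**Figure D1:**
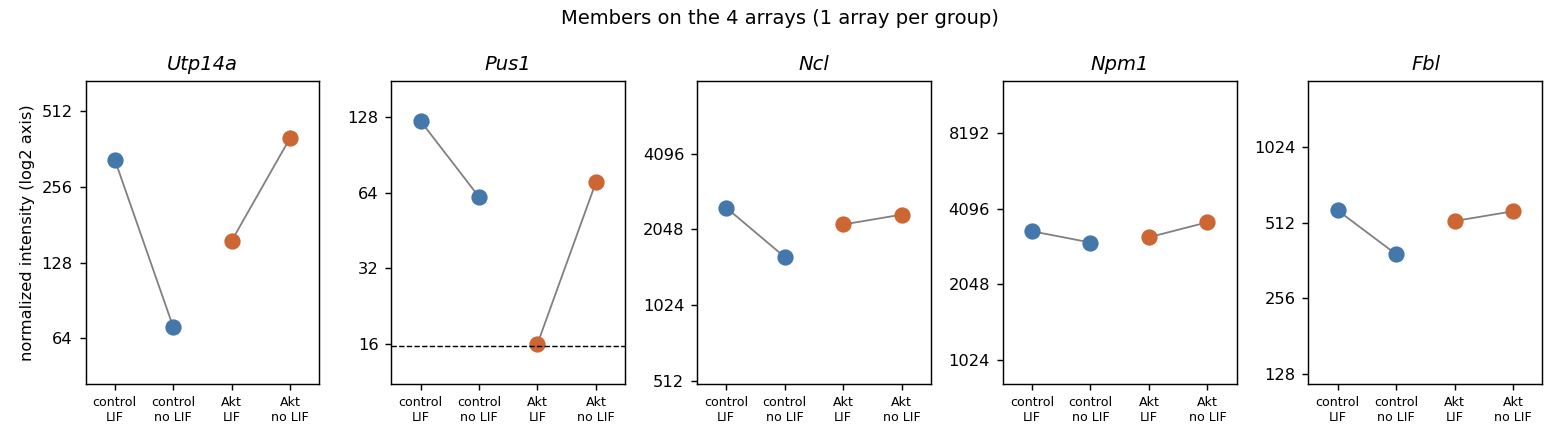
Normalized intensity (log2 axis, 1 panel per gene, each spanning the same fold range) of the 5 genes on the 4 arrays, with blue points for control cells, orange points for Akt cells, grey lines joining the arrays of 1 line and a dashed floor at 15.8 in the Pus1 panel. Utp14a is low in control cells without LIF (70.9) and Pus1 in Akt cells with LIF (16.1), while the other 3 genes span at most 1.57-fold.

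Ncl (probe set 100144_at, chromosome 1) was measured in control cells at 2493 with LIF and 1587 without it, and in the Akt line at 2139 and 2341. Control cells without LIF were the low array, 0.43 in log2 below the next. The other 3 arrays followed each other by 0.09 and 0.13, less than the spread between probe sets. After LIF withdrawal Ncl was 1.57-fold lower in control cells and 1.09-fold higher in Akt cells. Without LIF it was 1.47-fold higher in Akt cells than in control cells, and with LIF 1.17-fold lower.

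Fbl (probe set 160503_at, chromosome 7) had nearly the same pattern, with intensities in control cells of 572 with LIF and 383 without it, and in the Akt line of 520 and 569. The low array was again that of control cells without LIF, 0.44 in log2 below the next, and the other 3 lay within 0.14 of one another. Fbl was 1.49-fold lower in control cells after LIF withdrawal and 1.48-fold higher in Akt cells than in control cells when LIF was absent. In Akt cells it was 1.09-fold higher after withdrawal, a log2 difference of 0.13 that became -0.08 with scaling to the hybridization controls.

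Npm1 (probe set 101634_at, chromosome 11) differed least. In control cells it was measured at 3330 with LIF and 3004 without it, and in the Akt line at 3152 and 3616. No neighbouring levels differed by more than 0.12 in log2, less than the spread between probe sets. The order of the arrays was the one found for Utp14a, but the whole range was 1.20-fold. After LIF withdrawal Npm1 was 1.11-fold lower in control cells and 1.15-fold higher in Akt cells, and between the lines it was 1.06-fold lower in Akt cells with LIF, a log2 difference of -0.08 that became 0.10 with scaling to the hybridization controls. Among 5027 genes above the floor on all 4 arrays, 92.4% had a wider range than Npm1, 59.9% a wider one than Fbl and 52.5% a wider one than Ncl, while 2.47% had a wider range than Utp14a and 1.31% than Pus1. The median range of those genes was 0.67 in log2.

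Counted together, 2 of the 5 genes passed 2-fold downward in control cells after LIF withdrawal (6.4% of all measured genes did) and none higher (7.39% of all). In Akt cells 2 were higher (3.01% of all) and none lower (3.65% of all), where 6.66% of all genes passed 2-fold in either direction against 13.8% in control cells. With LIF, 2 were at least 2-fold lower in Akt than in control cells (3.64% of all, and 7.14% in either direction) and none higher (3.5% of all). Without LIF 1 was higher (5.87% of all, and 14.0% in either direction) and none lower (8.12% of all). In each case these were Utp14a and Pus1, or Utp14a alone without LIF. Since these values were in view when the genes were chosen, nothing is read from these shares. All 5 genes had a negative difference in control cells after LIF withdrawal and a positive one in Akt cells, with medians of -0.65 and 0.20 against -0.03 and 0.01 over all genes. The sign for Fbl in Akt cells depended on the scaling, as given above. The differences of Ncl, Fbl and Npm1 in Akt cells, and of Npm1 in control cells, were smaller than the spread between probe sets. The response of Akt cells minus that of control cells was 3.57 in log2 for Utp14a, 3.14 for Pus1, 0.78 for Ncl, 0.71 for Fbl and 0.35 for Npm1. Of all measured genes, 19.0% had responses at least 2-fold apart, 10.1% with the higher and 8.87% with the lower response in Akt cells, and 5 of 5671 genes lay above Utp14a and 12 above Pus1. The value for Pus1 rests on the LIF-treated Akt array near the floor, and it was 1.56 with the floor at the 60th percentile. For Npm1 the difference of responses is smaller than the spread between probe sets, an SD of 0.50 for this quantity.

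**Figure D2:**
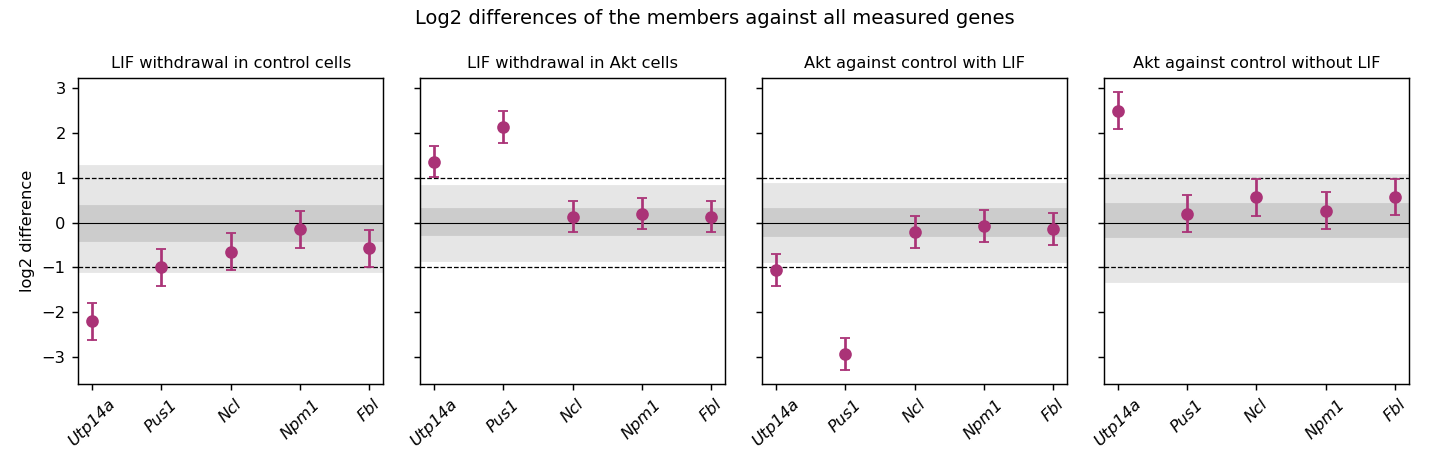
Log2 difference of each gene (points) in the 4 comparisons, with bars of 1 SD of the spread between probe sets of the same gene, dark and light bands for the central 50% and 90% of all measured genes and dashed lines at 2-fold. Utp14a lies outside the light band in all 4 panels and Pus1 in the 2 middle ones, and Npm1 lies inside the dark band in every panel.

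The other genes of the pathway were described with 6 lists that hold 191 genes besides the named ones, of which 114 were on the array and 113 above the floor on at least 1 array. In control cells after LIF withdrawal, 96 of 112 measured pathway genes had a negative difference, which is 85.7% against 51.8% of all genes. Their median was -0.61. None was 2-fold higher and 17 were 2-fold lower or more, which is 15.2% lower against 6.4% of all genes. The 17 became 25 with scaling to the hybridization controls. In the deposited intensities 46 were at least 2-fold different, where the median of all genes was -0.26 and 1111 of all genes passed 2-fold, against 825. In Akt cells 79 of 112 had a positive difference, which is 70.5% against 51.0% of all genes. There 1 was 2-fold higher and 1 lower, 0.893% each way and below the 3.01% and 3.65% of all genes, and the median was 0.13, which became -0.07 with scaling to the hybridization controls. These controls moved the median of all genes in Akt cells from 0.01 to -0.16.

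Genes of the nucleolar particles, which include the box C/D partners of Fbl, were among the lower genes in control cells without LIF. All 9 measured members of the list of box C/D and H/ACA particles had a negative difference, 5 were at least 2-fold lower, and the median was -1.03, where 51.8% of all genes were negative and 6.4% at least 2-fold lower. That median was -0.60 with a floor at the 60th percentile and -0.57 with the mean of all probe sets of a gene. Nop56, a core box C/D protein, went from 1111 to 542, 2.05-fold lower, although a second probe set gave a log2 difference of -0.31. Nop58, its partner, was 1.52-fold lower. The paired ATPases Ruvbl1 and Ruvbl2 and the assembly factor Nufip1, which help build these particles, were 2.16-fold, 2.31-fold and 2.22-fold lower, and a second probe set of Ruvbl1 went the other way with 0.41 in log2. A second Nufip1 probe set was at the floor on all 4 arrays. In Akt cells no member of this list was 2-fold different after withdrawal (6.66% of all genes were), and Nop56 was 961 with LIF and 975 without it. Dkc1, Npm3 and Utp14b, close relatives or partners of the 5 genes, were not analysed here.

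In the small subunit processome, to which Utp14a belongs, 22 of 30 measured genes had a negative difference in control cells after LIF withdrawal (51.8% of all genes did), with a median of -0.48. At least 2-fold lower were 3 of the 30, a share near the 6.4% of all genes. Those 3 were Ltv1 (2.17-fold), which encodes an assembly factor of the small subunit, Rrp12 (2.12-fold) and Utp4 (2.08-fold), all below the 4.64-fold of Utp14a. In Akt cells Wdr46 was 2.02-fold higher after withdrawal, at 71.9 against 35.7. It was 1 of 29 measured genes there, 3.45% against 3.01% of all genes. The median of the list in Akt cells was 0.21, or 0.004 with scaling to the hybridization controls. With LIF, Bms1, which encodes a GTPase of the processome, was 2.23-fold lower in Akt than in control cells. It was 1 of 28 measured genes, 3.57% against 3.64% of all genes. Without LIF, 3 of 30 were at least 2-fold higher in Akt than in control cells (5.87% of all genes were). Those 3 were Utp4 (2.24-fold), Wdr46 (2.13-fold) and Ltv1 (2.10-fold).

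Of 39 measured genes for large subunit assembly, 36 had a negative difference in control cells after LIF withdrawal (51.8% of all genes did) and 8, or 20.5%, were at least 2-fold lower (6.4% of all genes), with a median of -0.70. Wdr74 (3.02-fold), Ftsj3 (2.57-fold) and the helicase gene Ddx54 (2.56-fold) were lowest among them, and a second Ftsj3 probe set was at the floor on all 4 arrays. Without LIF, 6 members, or 15.4% against 5.87% of all genes, were at least 2-fold higher in Akt than in control cells, led by Wdr74 (3.83-fold), the helicase gene Ddx51 (3.10-fold) and Ftsj3 (2.48-fold). With the probe sets used, none was 2-fold different in Akt cells after withdrawal (6.66% of all genes were) or between the lines with LIF (7.14%). A second Nop16 probe set passed 2-fold in both, with log2 differences of 1.15 and -1.26 against 0.72 and -0.96 for the one used. Npm1, which is on this list, had a smaller difference than the list's median in control cells, -0.15 against -0.70.

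Genes of the polymerase I machinery had a median of -0.71 in control cells after withdrawal, with 17 of 20 negative (51.8% of all genes were). Polr1e, a subunit gene, was 2.22-fold lower there and 2.27-fold higher in Akt than in control cells without LIF. With the probe sets used, it was 1 of 20 past 2-fold each time, 5.0% against 6.4% and 5.87% of all genes. Another Taf1d probe set had log2 differences of -1.26 and 1.02 in these comparisons, against 0.13 and 0.24 for the one used. Another Mybbp1a probe set had 1.11 without LIF, against 0.05. Ubtf, the gene of the transcription factor that recruits polymerase I, was 2.03-fold lower in Akt cells after withdrawal, at 116 against 235. It was 1 of 20 there, 5.0% against 3.65% of all genes, while 14 of the 20 had a positive difference (51.0% of all genes did). Besides Pus1, 8 pseudouridine synthase and transfer RNA modification genes were measured, with medians of -0.28 in control and 0.24 in Akt cells after withdrawal. With the probe sets used, none was 2-fold different after withdrawal in either line, where 13.8% and 6.66% of all genes were. Other Nsun2 probe sets passed 2-fold in control cells, with log2 differences of -1.26 and -1.30 against -0.81 for the one used. The last Nsun2 probe set was at the floor on all 4 arrays. Mettl1, a transfer RNA methyltransferase gene, was 2.06-fold higher in Akt than in control cells without LIF, 1 of 8 or 12.5% against 5.87% of all genes. One of the other Nsun2 probe sets also passed 2-fold there, with 1.22 in log2 against 0.71 for the one used. The list of exosome and trimming genes, with 6 measured in control and 7 in Akt cells, had medians of -0.31 and -0.01 after withdrawal. With the probe sets used, no member was 2-fold different, where 13.8% and 6.66% of all genes were. A second Exosc5 probe set had a log2 difference of -1.22 in control cells, against -0.07 for the one used.

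**Figure D3:**
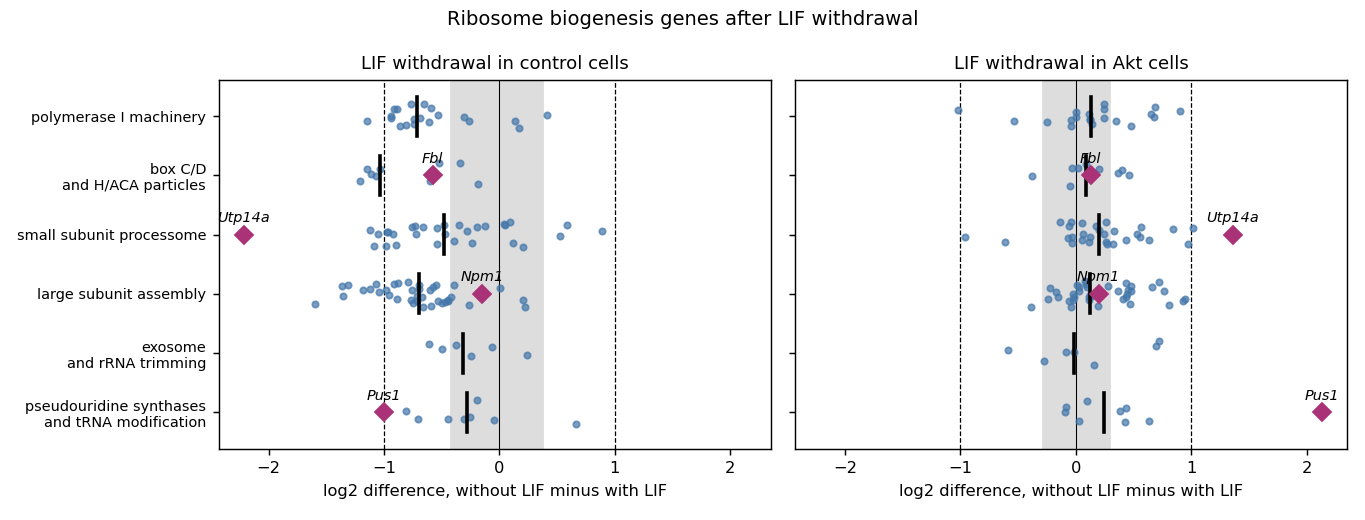
Log2 difference after LIF withdrawal for the genes of 6 ribosome biogenesis lists (blue points) in control cells (left) and Akt cells (right), with a black bar at each list's median without the named genes, diamonds for the named genes on a list, a grey band for the central 50% of all genes and dashed lines at 2-fold. The medians lie between -1.03 and -0.28 in control cells and between -0.01 and 0.24 in Akt cells, where scaling to the hybridization controls gave -0.26 to 0.04.

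Among 108 pathway genes above the floor on all 4 arrays, control cells without LIF held the lowest level of 76, or 70.4%, against 38.2% of the 5027 genes. Under the other scalings and floors this share lay between 45.9% and 75.9%, the lowest in the deposited intensities, where it was 23.5% over all genes. The highest level was that of control cells with LIF for 53 genes, or 49.1% against 21.6% of the 5027 genes. It was that of Akt cells without LIF for 35, or 32.4% against 19.7%. Utp14a, Ncl, Fbl and Npm1 were likewise lowest in control cells without LIF, although Npm1 was lowest in Akt cells with LIF in the deposited intensities (2733 against 2947). Pus1 was lowest in Akt cells with LIF, where 16.7% of the pathway genes and 25.5% of all genes were lowest. The array of control cells without LIF is also the one with the lowest actin ratio, the highest Gapdh ratio, the lowest summed stem cell markers and the highest summed fibroblast markers given above.

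**Figure D4:**
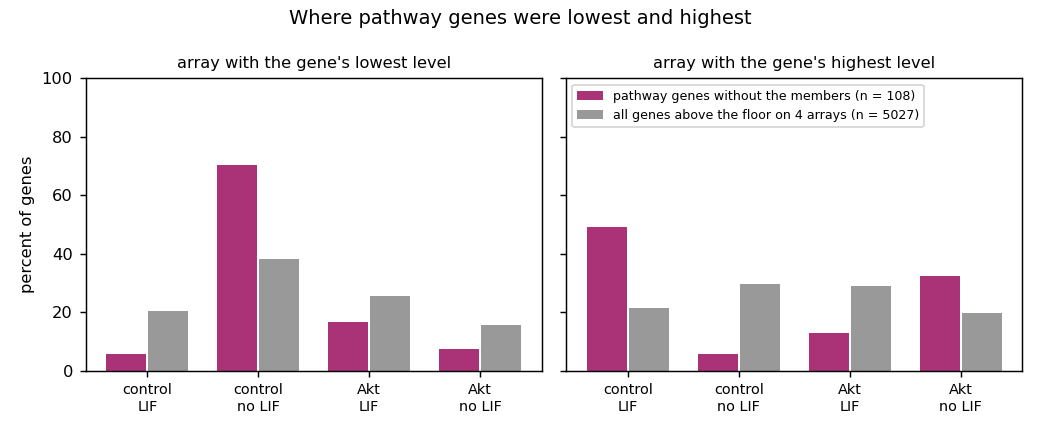
Share of genes (percent) with their lowest (left) or highest (right) level on each array, for 108 pathway genes without the named ones (purple bars) and for all 5027 genes above the floor on the 4 arrays (grey bars). Control cells without LIF hold the lowest level of 70.4% of the pathway genes.

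Next the pathway genes were compared between the lines. With LIF, 84 of 110 had a negative difference, which is 76.4% against 49.2% of all genes. Bms1 was the one at least 2-fold lower, 0.909% and below the 3.64% of all genes, and the median was -0.21 against 0.01 over all genes. Without LIF 97 of 112 were higher in Akt than in control cells, which is 86.6% against 55.0% of all genes, 14 by at least 2-fold, which is 12.5% against 5.87% of all genes, with a median of 0.54. In the deposited intensities that median was 0.24, against -0.23 over all genes, and 2 pathway genes differed by 2-fold without LIF, against 896 of all genes. With LIF 30 pathway genes did so in the deposited intensities, against 1068 of all genes, whose median was -0.52. The response to withdrawal was higher in Akt than in control cells for 99 of 111 pathway genes, which is 89.2% against 51.9% of all genes. For 43 of them it was higher by at least 2-fold, which is 38.7% against 10.1% of all genes. The median difference of responses was 0.80, with medians of 0.69 to 1.06 under the other scalings, floors and probe set rule. The array of control cells without LIF enters the comparison without LIF, the difference of responses and the withdrawal in control cells.

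Values of the Myc family are given beside these because its members are known activators of ribosome biogenesis genes. Mycn had intensities in control cells of 858 with LIF and 227 without it, and in the Akt line of 202 and 465. It was thus 3.78-fold lower in control cells and 2.30-fold higher in Akt cells after withdrawal. Whether the Myc family has a part in the levels of the pathway genes was not tested. A second Mycn probe set was at the floor on all arrays. Myc in control cells was 105 with LIF and 98.9 without it, and in the Akt line 42.9 and 81.4. It was 2.45-fold lower in Akt than in control cells with LIF. Mycl was higher after withdrawal in both lines (2.73-fold in control and 2.16-fold in Akt cells), and lower in Akt than in control cells with LIF (3.07-fold) and without it (3.88-fold). Mxd4, which encodes an antagonist of Myc, was 2.42-fold higher in the controls after withdrawal, while Mlx, the gene of a Max-like partner protein of the network, was 2.05-fold lower. Of 8 measured network genes, 2 were at least 2-fold higher (7.39% of all genes) and 2 lower (6.4%) in control cells after withdrawal. In Akt cells 2 of 9 were higher (3.01%). In Akt against control cells, 3 of 9 were lower with LIF (3.64%), and 1 of 8 was higher (5.87%) and 1 lower (8.12%) without it. Of 4 measured genes known to act with nucleolin or nucleophosmin, Mdm2, the gene of the ubiquitin ligase that nucleolar proteins can inhibit, was 2.59-fold higher in Akt than in control cells with LIF. The median of those 4 was -0.40 in control cells after withdrawal and -0.12 in Akt cells.

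The genes most like each named gene were found by the root mean square distance between their log2 values over the 4 arrays, each centred on its own mean, among 5026 other genes above the floor on all 4. With 4 arrays, likeness of this kind is a description of these libraries. Nearest to Utp14a were the zinc finger gene Zfp94 (0.23), Ggct (0.27) and Utf1 (0.28), the last a chromatin gene of undifferentiated stem cells at 741 with LIF and 137 without it in control cells, and at 464 and 723 in the Akt line. No gene lay within 0.2 of Utp14a or of Pus1. Nearest to Pus1 were Esrp1 (0.32), a splicing regulator gene, Slc6a15 (0.39) and Thbs3 (0.45). These names depend on the processing. With a floor at the 20th percentile those of Pus1 were Pik3r2, Dnajc11 and Slc26a2, and those of Utp14a were Myh6, Fam207a and Zfp94, while Dnmt3a replaced Ggct under the other scalings. The distance between Utp14a and Pus1 was 1.16, and 3997 genes lay closer to Utp14a than Pus1 did.

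The patterns of Ncl and Fbl were close, with a distance of 0.03. Of the 5026 genes, 9 lay closer to Ncl than Fbl did, and 13 lay closer to Fbl than Ncl did. Under the other scalings, floors and rules for probe sets these counts were 4 to 14 and 8 to 14. Nearest to Ncl were Usp7, Psma1 and Eftud2, and nearest to Fbl were Eri2, Usp15 and Bnip1, at distances of 0.0113 to 0.0249. For Npm1 they were Oc90, Rnf6 and Ube2d3, each at 0.02. These genes vary little, and 951 genes lay within 0.2 of Ncl, 1032 within 0.2 of Fbl and 1516 within 0.2 of Npm1, so none of the neighbours is set apart.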

How the data were processed

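Total RNA of 4 samples was measured on Affymetrix arrays with 12488 probe sets, 66 of them array controls. The authors deposited linear intensities with 1 value for each probe set, and how these were computed and scaled was not given in the sources used here. Their 2% trimmed means differed by 1.51 times between arrays, so the 12422 other probe sets were quantile normalized (limma 3.58.1 in R 4.3.3), set to a floor at the 40th percentile (15.8) and taken to log2. Quantile normalization removes a shift common to most genes. Of these probe sets, 10833 had 1 gene symbol, 396 several and 1193 none; symbols were updated by gene identifier for 10817 (RefSeq, GRCm38.p6). For a gene with several probe sets, the one with the highest mean was used.

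Groups hold 1 array each, so log2 differences with a 2-fold rule were used and no test was run; the number of arrays limits the precision. A comparison counted the genes for which 1 or both of its arrays passed the floor. Alternatives were other scalings, floors at the 20th and 60th percentiles, the mean of all probe sets and a 1.5-fold rule. The fold rule was tried on simulated data with less noise than the spread between probe sets and with effects placed well above the floor. That run does not cover values near the floor. The genes, the lists and the rule for named genes (the 5 genes, their 3 nearest patterns, fixed partners and Myc genes, and up to 3 genes per list, direction and comparison past 2-fold) were chosen with earlier results of these data known.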

Additional observations from a re-analysis of the deposited data

Results flagged for a closer look

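LIF withdrawal was accompanied by a negative difference in control cells and a positive one in Akt cells for each of the 5 genes, on 1 array per group, so whether the lines differ was not tested. The 2 responses, Akt minus control, differed by 3.57 in log2 for Utp14a, 3.14 for Pus1, 0.78 for Ncl, 0.35 for Npm1 and 0.71 for Fbl. The value for Pus1 was 1.56 with the floor at the 60th percentile. The opposite direction for Fbl was lost with scaling to the hybridization controls. In Akt cells the differences of Ncl (0.13), Fbl (0.13) and Npm1 (0.20) were smaller than the spread between probe sets, an SD of 0.35. So was that of Npm1 in control cells (-0.15, against an SD of 0.41).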

How the results depend on the processing

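Of 25 values of the 5 genes (4 comparisons and the difference of responses), 22 kept their sign under the other scalings, floors and probe set rule, all but Fbl in Akt cells (-0.08) and Npm1 between the lines with LIF (0.10), both with hybridization controls, and Pus1 between the lines without LIF (-0.14 as deposited). The side of 2-fold was kept by 19, with exceptions for Pus1 after withdrawal in control (-0.95) and Akt cells (0.56), Utp14a between the lines with LIF (-0.98), Ncl in control cells (-1.01) and the differences of responses of Ncl (up to 1.23) and Fbl (1.07). Counts of the 5 genes moved from 2 to 1 in control cells after withdrawal (common trimmed mean), between the lines with LIF (hybridization controls) and in Akt cells after withdrawal (60th-percentile floor). Counts of all genes at least 2-fold different were 825 and 396 after withdrawal in control and Akt cells, 424 and 841 between the lines with and without LIF, and 1075 for the difference of responses. In that order they were 1370, 970, 1003, 1440 and 1906 when the floor was the 20th percentile, 518, 192, 214, 501 and 627 when it was the 60th, and 2048, 1279, 1382, 1904 and 2353 with a 1.5-fold rule. As deposited, 1068 differed between the lines with LIF, where the median of all genes was -0.52. The share of higher genes among these was 53.6% in control cells after withdrawal (30.2% as deposited), 45.2% in Akt cells (24.7% with hybridization controls), 49.1% between the lines with LIF (6.18% as deposited, 63.3% with hybridization controls) and 42.0% without LIF (18.8% as deposited). In the deposited intensities the list medians between the lines with LIF were -0.75 (polymerase I), -0.74 (box C/D and H/ACA), -0.80 (small subunit), -0.81 (large subunit), -0.65 (exosome), -0.78 (pseudouridine synthases), -0.42 (nucleolin associated), -0.78 (Myc network), -0.47 (stem cell markers) and -0.35 (fibroblast markers, 0.47 for the 60th-percentile floor). The box C/D and H/ACA median in control cells, -1.03, was -0.60 with that floor and -0.57 with the mean of probe sets. The cause was not tested. No paired analysis was possible because each group holds 1 array and no label gives a replicate number.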
